A study of Mus musculus with 4 samples.

Results

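This account covers 10 genes around YAP, the transcriptional co-activator of the Hippo pathway, in mouse skin carcinoma cells. They are the co-activator genes Yap1 and Wwtr1, the DNA-binding partner genes Tead1, Tead2 and Tead3, the inhibitor genes Lats2 and Amotl2, and the target genes Ccn1, Ccn2 and Ankrd1. Every probe set that the array annotation gives to 1 of these genes alone was taken, which made 23 of the 45037 probe sets and 10 of the 18193 genes. The genes were chosen on pathway knowledge with their values in this same comparison already known, so their differences are given as a description, with no test. 1 further probe set, which the annotation gives to Xpo4 and Lats2 together, was left out.

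RNA came from tumour epithelial cells of chemically induced squamous cell carcinomas of mouse skin, labelled as malignant tumours. Live cells had been sorted for Epcam and against CD140a, CD31 and CD45, surface markers of mesenchymal, endothelial and blood cells in that order. The groups were Sox2-GFP-positive cells (n = 2 arrays) and Sox2-GFP-negative cells (n = 2 arrays), where GFP is a fluorescent reporter for the transcription factor gene Sox2. The series text names 2 tumours of 2 mice as the source, and the labels do not say whether a replicate number marks a tumour. The sources used here do not give the mouse strain or age, the reporter allele or the carcinogen. Values are the deposited log2 array values, on which 1 unit is a doubling, and 4 arrays set how precise any of them can be. Array medians ran from 5.49 to 5.61, with lower quartiles of 4.19 to 4.25 and 5th percentiles of 3.34 to 3.37, near which a value only bounds a transcript's level. Probe sets bind with different efficiency, so levels are compared between arrays and never between genes.

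The Hippo pathway restrains tissue growth through a kinase cascade. The LATS kinases phosphorylate YAP and its relative TAZ, the product of Wwtr1, which keeps both out of the nucleus. Unphosphorylated YAP and TAZ enter the nucleus and bind TEAD proteins on DNA, where they turn on genes for secreted matricellular proteins such as Ccn1 and Ccn2, and for feedback inhibitors such as Lats2 and Amotl2. Most of this control acts on protein position and phosphorylation, which these arrays do not measure. In skin, YAP is known from basal keratinocytes and has been tied to squamous carcinoma growth, while Ccn2 is also a classical product of fibroblasts and a target of TGF-beta.

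TEAD proteins bind the hexamer GGAATG, and the stretches of 250 bases upstream of the annotated starts were searched for it on both strands (as GGAATG or CATTCC). RefSeq promoter entries (GRCm38.p6) matched 8 of the 10 genes, all but Tead1 and Ccn2. The hexamer was present upstream of at least 1 start in 6 of these 8 genes (Yap1, Wwtr1, Tead3, Amotl2, Ccn1 and Ankrd1), against 14.4% of 27025 genes in the table. Counted by start, 8 of 12 member windows held it, against 12.6% of 32851 windows. The windows of Wwtr1 overlap and hold the same site, which is counted at each start. Several of the genes are known TEAD targets, so this is a description of the chosen genes, and a match is not shown to be a bound site. The windows of 5 genes follow, with the hexamer in capitals, because they place the co-activator genes themselves beside their targets. The coordinates are chr3:145649986-145650235 (minus strand) for Ccn1, chr19:36119845-36120094 (minus strand) for Ankrd1 and chr9:102717554-102717803 (plus strand) for Amotl2. Those of Yap1 are chr9:8004597-8004846 (minus strand) and those of Wwtr1 chr3:57575911-57576160 (minus strand).
Ccn1: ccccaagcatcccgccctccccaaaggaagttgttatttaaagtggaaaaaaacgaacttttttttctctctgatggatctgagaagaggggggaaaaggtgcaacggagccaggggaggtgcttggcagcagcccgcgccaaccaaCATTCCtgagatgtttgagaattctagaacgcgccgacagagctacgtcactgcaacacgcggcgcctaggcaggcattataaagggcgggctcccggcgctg
Ankrd1: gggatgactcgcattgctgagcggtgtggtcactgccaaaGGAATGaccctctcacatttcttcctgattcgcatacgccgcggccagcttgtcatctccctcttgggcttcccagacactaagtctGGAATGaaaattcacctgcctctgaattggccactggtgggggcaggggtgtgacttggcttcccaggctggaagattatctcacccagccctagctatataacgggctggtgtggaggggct
Amotl2: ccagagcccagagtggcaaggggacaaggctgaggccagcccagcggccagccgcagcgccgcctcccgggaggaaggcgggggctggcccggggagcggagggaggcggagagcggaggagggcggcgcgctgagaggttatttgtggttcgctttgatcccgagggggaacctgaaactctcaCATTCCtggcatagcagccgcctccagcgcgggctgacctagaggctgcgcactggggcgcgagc
Yap1: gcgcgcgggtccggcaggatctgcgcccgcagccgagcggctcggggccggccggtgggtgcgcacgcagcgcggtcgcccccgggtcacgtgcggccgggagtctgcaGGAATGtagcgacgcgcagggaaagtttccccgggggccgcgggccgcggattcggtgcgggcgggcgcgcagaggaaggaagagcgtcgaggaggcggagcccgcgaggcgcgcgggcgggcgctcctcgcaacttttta
Wwtr1: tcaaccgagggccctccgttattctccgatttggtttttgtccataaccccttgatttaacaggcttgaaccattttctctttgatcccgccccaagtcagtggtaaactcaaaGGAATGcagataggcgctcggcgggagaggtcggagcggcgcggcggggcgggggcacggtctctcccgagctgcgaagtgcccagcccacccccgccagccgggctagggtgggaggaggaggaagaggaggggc

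The hexamer began 103 bases upstream of the start in Ccn1, 65 in Amotl2 and 141 in Yap1. In Wwtr1 the same site lay 136 bases upstream of the start shown and 170 upstream of the other. Ankrd1 held it at 210 and at 123 bases upstream. The AP-1 site TGANTCA, bound by Fos and Jun proteins, was in 0 of the 12 member windows, against 6.75% of all windows. The CArG box, bound by the actin-responsive factor SRF, was also in 0 of the 12, against 1.47%. No match overlapped another motif in these windows, since only the TEAD hexamer was found.

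Ccn2 was the member with the widest separation between the groups, and most of the others overlapped. Of the 23 probe sets, 16 had overlapping groups, 6 had the positive pair of arrays entirely below the negative pair, and 1 had it entirely above. Over all probe sets, 18.4% lay below and 29.7% above in that way, and the members' counts are given beside these shares with nothing read from them. The separation reached 1 log2 unit in 1 member probe set, that of Ccn2, against 1.37% of all probe sets with positive arrays that far below. The median difference of positive minus negative over the members was -0.13, against 0.07 over all probe sets. Single arrays set its sign: it was 0.06 without positive replicate 1, 0.04 without negative replicate 1, -0.49 without positive replicate 2 and -0.40 without negative replicate 2. In the limma fit over all 45037 probe sets, 0% were called higher and 0% lower at an adjusted p of 0.05 (lowest adjusted p = 0.226). At an unadjusted p under 0.05 there were 3349 higher and 2976 lower. Of all separated probe sets, 61.7% were above as deposited, 72.7% with equal array medians and 96.7% after scaling to the bacterial spike-in transcripts, which raised every difference by 0.69. The direction of small differences therefore holds only relative to the deposited scale: 14 of the 23 member differences turned sign under spike-in scaling. The counts varied in the same way. The members separated above numbered 8 without positive replicate 1 and 6 without negative replicate 1, beside 19086 and 18169 of all 45037 probe sets. Those below numbered 15 without positive replicate 2 and 13 without negative replicate 2, beside 14572 and 13015 of all. With no array left out, 13359 of all were above and 8305 below. Separation is easier for every probe set once an array is left out, so nothing is read from these counts. A setting added after seeing the data joined the replicate number as a block with 1 probe set per gene. Limma then called 13 of 18193 genes higher and 158 lower. Either change alone called 0 in each direction, and the block left 1 residual degree of freedom.

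**Figure D1:**
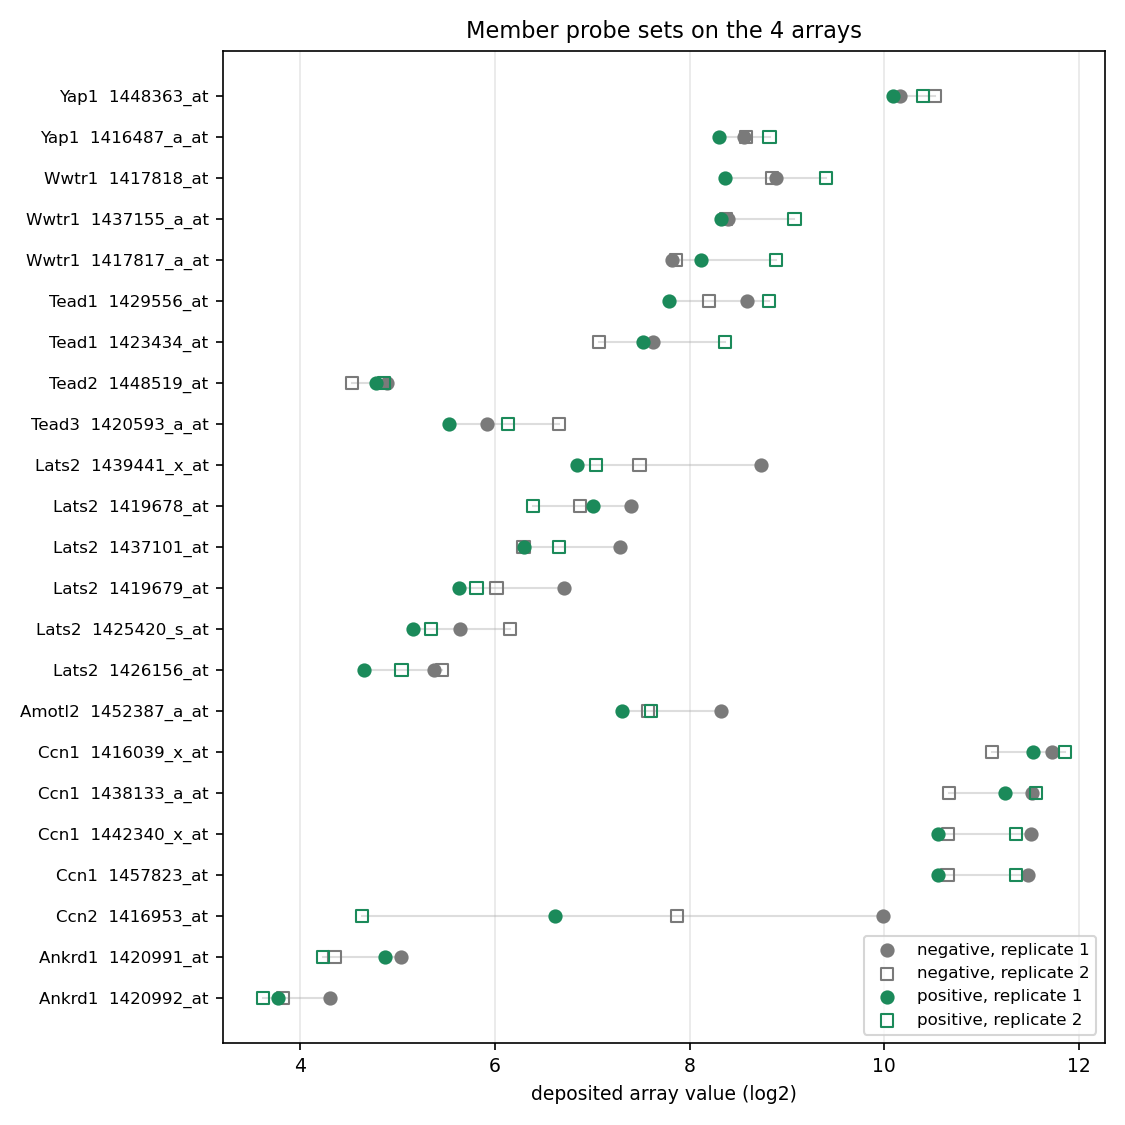
Deposited log2 value (horizontal axis) of each of the 23 member probe sets (rows) on the 4 arrays, with grey for Sox2-GFP-negative, green for Sox2-GFP-positive, filled circles for replicate 1 and open squares for replicate 2. Ccn2 spans 4.64 to 9.99 with both positive arrays lowest, while the arrays of both groups overlap in 16 of the rows.

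The members were first compared by replicate number, since the groups share the numbers 1 and 2. Between the replicate 1 arrays, 22 of the 23 probe sets were lower in positive cells, with a median difference of -0.49. Between the replicate 2 arrays, 10 were lower and 13 higher, with a median of 0.24. Over all probe sets, 42.8% were lower for replicate 1 and 46.9% for replicate 2, with medians of 0.09 and 0.03. Only 10 member probe sets were lower in both, those of Ccn2, Ankrd1, Tead3, 5 of the 6 of Lats2 and 1 of the 2 of Yap1, and 1 was higher in both. Negative replicate 1 was the highest array for 11 of the 23 probe sets and positive replicate 2 for 8. Several genes enter these counts through repeat probe sets. No share over all probe sets is given for them or for those lower or higher in both, so nothing is read from these counts.

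**Figure D2:**
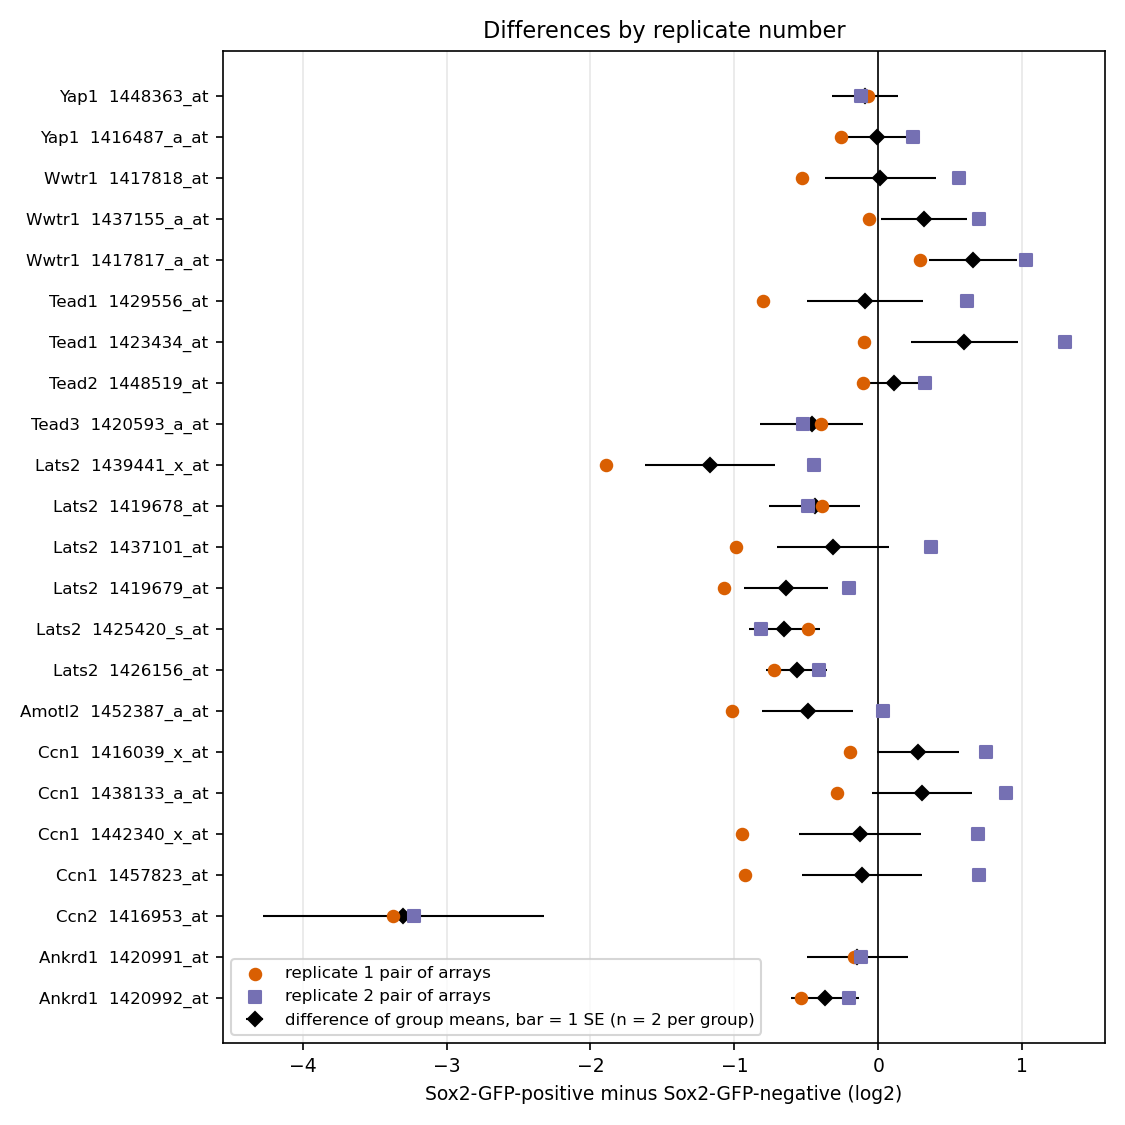
Positive minus negative difference in log2 units (horizontal axis) for each member probe set (rows), for replicate 1 (orange circles), for replicate 2 (purple squares) and of the group means (black diamonds, bar = 1 SE, n = 2 per group). The markers of the 4 Ccn1 probe sets lie on opposite sides of 0, whereas those of Ccn2 coincide near -3.3.

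The co-activator genes were measured above the array median, and the groups overlapped in 4 of their 5 probe sets. Yap1 was read by 2 probe sets. The brighter (1448363_at) gave 10.09 and 10.40 in the positive arrays (replicates 1 and 2 throughout) and 10.16 and 10.52 in the negative arrays, a difference of -0.09 ± 0.23 (SE, n = 2 per group). The other (1416487_a_at) gave 8.30 and 8.82 against 8.56 and 8.58, a difference of -0.01 ± 0.24. In both, the groups overlapped and the spread within the positive group was larger than the difference between groups.

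Wwtr1, which encodes TAZ, was highest in positive replicate 2 by all 3 of its probe sets. The brightest (1417818_at) gave 8.36 and 9.40 (positive) and 8.89 and 8.84 (negative). The second (1437155_a_at) read 8.33 and 9.08 against 8.39 and 8.38. Their differences were 0.01 ± 0.39 and 0.32 ± 0.30 (SE). The third (1417817_a_at) read 8.12 and 8.89 against 7.82 and 7.86, and was the only member probe set with both positive arrays above both negative ones, by 0.66 ± 0.31 (SE). Positive replicate 1 was thus below both negative arrays in 2 probe sets and above them in the third, although the third was designed from the same source sequence as the first. Without positive replicate 2 the difference of the third was 0.27, and without positive replicate 1 it was 1.05.

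Tead1, Tead2 and Tead3 encode DNA-binding partners that carry YAP and TAZ to their sites. Tead1 read 7.79 and 8.81 (positive) against 8.59 and 8.20 (negative) by 1 probe set (1429556_at). Its other probe set (1423434_at) read 7.52 and 8.37 against 7.62 and 7.07. Both were highest in positive replicate 2, with differences of 0.62 and 1.30 for replicate 2 but of -0.80 and -0.10 for replicate 1, so the group means differed by -0.09 ± 0.40 and 0.60 ± 0.37 (SE). Tead2, known mainly from embryonic tissue, was dim, at 4.78 and 4.86 against 4.89 and 4.53 (a difference of 0.11 ± 0.21), not far above the lower quartile of the arrays. Tead3 read 5.53 and 6.13 against 5.92 and 6.66, lower in positive cells at each replicate number (-0.40 and -0.53) but with groups that overlapped (-0.46 ± 0.36 on the means). Of these 3 genes, none had separated groups.

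Lats2, a kinase that inactivates YAP and is itself a YAP target, had 4 of its 6 probe sets lower in both positive arrays on the deposited scale. The brightest (1439441_x_at) gave 6.84 and 7.04 (positive) and 8.74 and 7.49 (negative), 2.25-fold lower on the group means (log2 difference -1.17 ± 0.45 SE). The positive arrays were close together and negative replicate 1 stood highest. Separated groups were also found at 1419679_at (5.63 and 5.81 against 6.71 and 6.02), at 1425420_s_at (5.15 and 5.34 against 5.64 and 6.16) and at 1426156_at (4.66 and 5.04 against 5.38 and 5.45). The groups overlapped at 1419678_at (7.005 and 6.39 against 7.40 and 6.88) and at 1437101_at (6.30 and 6.66 against 7.29 and 6.29). Over the 6 probe sets the differences ran from -1.17 to -0.31, with all 6 below 0 on the group means as deposited. After spike-in scaling the brightest was at -0.48 and the other 5 were above 0 (0.03 to 0.37). Without negative replicate 1 the difference of the brightest was -0.54. The probe sets 1419678_at and 1419679_at were designed from the same source sequence, though only the second had separated groups. The x and s suffixes, here and in Ccn1, mark probe sets that can share sequence with other transcripts. The left-out probe set shared with Xpo4 differed in sign, at 8.06 and 8.02 against 7.81 and 7.19.

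Amotl2, an angiomotin-like scaffold that holds YAP at cell junctions and is another YAP target, was read by 1 probe set. It gave 7.31 and 7.60 (positive) and 8.32 and 7.57 (negative), a difference of -0.49 ± 0.32 (SE). The groups overlapped: negative replicate 1 was high and the other 3 arrays lay within 0.3 of each other. The difference was -1.01 for replicate 1 and 0.03 for replicate 2.

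Ccn1 and Ccn2, related matricellular proteins that bind integrins in the extracellular matrix, did not share a pattern. Ccn1 was bright on all arrays. Its brightest probe set (1416039_x_at) gave 11.53 and 11.85 (positive) and 11.73 and 11.11 (negative), a difference of 0.27 ± 0.29 (SE). The probe set 1438133_a_at read 11.24 and 11.56 against 11.52 and 10.67. The other pair, designed from the same source sequence, agreed closely with each other: 1442340_x_at read 10.56 and 11.35 against 11.51 and 10.66, and 1457823_at read 10.55 and 11.35 against 11.48 and 10.65. In all 4 the groups overlapped, with negative replicate 1 and positive replicate 2 as the high arrays. Positive cells were lower for replicate 1 (-0.95 to -0.20) and higher for replicate 2 (0.70 to 0.89). The mean differences had no common sign, from -0.13 to 0.30.

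Ccn2 was read by 1 probe set (1416953_at), at 6.62 and 4.64 in positive cells and at 9.99 and 7.87 in negative cells. The groups did not overlap, and replicate 1 was above replicate 2 in each group. The group means differed by 9.85-fold (log2 difference -3.30 ± 0.98 SE, n = 2 per group), and 46 of the 45037 probe sets had a lower difference. The 4.64 of positive replicate 2 is dim, near the lower quartile of the arrays, and may only bound the level there, which limits the fold, the rank and the replicate 2 difference. The difference was -3.37 for replicate 1 and -3.23 for replicate 2, although the replicates of a group were 1.98 (positive) and 2.12 (negative) apart. It stayed below 0 under each alternative tried, from -4.36 without negative replicate 2 to -2.24 without negative replicate 1, and was -2.61 after spike-in scaling. Without positive replicate 1 it was -4.29, and without positive replicate 2 it was -2.31. In bulk samples such as these, fewer cells of a type and less RNA per cell cannot be told apart.

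Fibroblast markers moved with Ccn2 from array to array. All 10 fibroblast markers listed (Pdgfra, Pdgfrb, Col1a1, Col1a2, Col3a1, Dcn, Lum, Dpt, Thy1 and Mfap5) had separated groups with the positive arrays lower. Over 18193 genes, each read likewise by its brightest probe set, 2553 were separated below and 6460 above. The list was chosen with earlier results of these data known. The markers had a median difference of -2.61 and a range of -3.18 to -1.51. Their median difference was -2.11 for replicate 1 and -3.20 for replicate 2, and replicate 1 exceeded replicate 2 by a median of 2.58 in positive and of 1.42 in negative cells. Summed on the linear scale, the list came to 15491 and 1892 (positive) and to 41984 and 18668 (negative). Dpt in positive replicate 2 (3.82) lay below the lower quartile of the arrays, while the other marker values lay above it. By the smallest distance between profiles over the 4 arrays, each centred on its own mean, the genes most like Ccn2 among 10601 were Cdh11, a mesenchymal cadherin, Prrx1, a mesenchymal homeobox factor, and Lum, a collagen-binding proteoglycan also on the marker list. Their distances were 0.32, 0.32 and 0.39 log2 units. The cells had been sorted against CD140a, and which cells these transcripts came from was not tested. Nor was the part of fibroblast RNA, if any, in the Ccn2 difference.

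**Figure D3:**
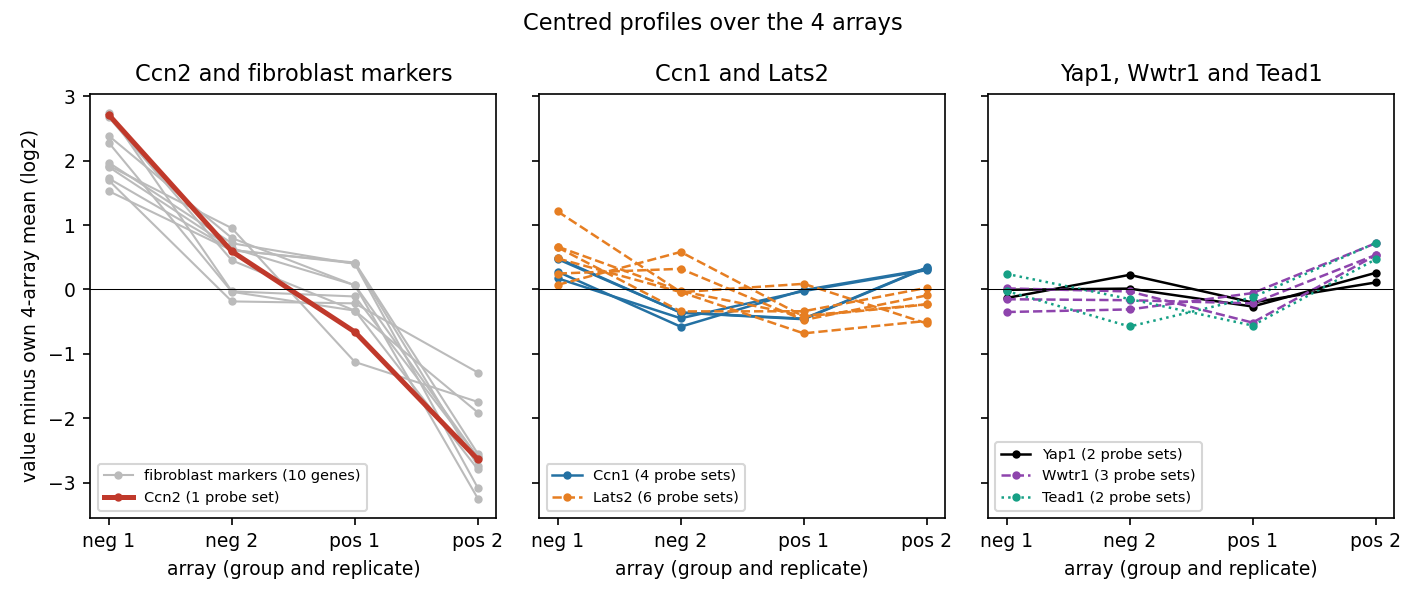
Log2 value minus the probe set's own 4-array mean (vertical axis) on each array (horizontal axis, neg and pos for the Sox2-GFP groups with the replicate number), for Ccn2 (red) with 10 fibroblast markers (grey), for Ccn1 and Lats2, and for Yap1, Wwtr1 and Tead1, 1 line per probe set or marker gene. Ccn2 goes from highest in negative replicate 1 to lowest in positive replicate 2 as the markers do, while Ccn1, Wwtr1 and Tead1 are high in positive replicate 2.

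Other cell type markers were less uniform, and their counts stand beside the same 2553 below and 6460 above of 18193 genes. Endothelial markers had 2 of 10 genes separated, both below, with a summed linear level of 834 and 472 (positive) against 1744 and 622 (negative). Immune markers had 2 of 10 below and 1 above, with sums of 882 and 508 against 2411 and 731. In both lists negative replicate 1 was the highest array, as it was for Amotl2 and 4 of the 6 Lats2 probe sets. Keratinocyte markers, all at 9.64 or above, had differences of both signs: Cdh1, the epithelial cadherin, gave 9.64 and 10.36 against 10.74 and 11.18 (a difference of -0.96 ± 0.32, adjusted p = 0.328), Itga6, a basal integrin, lay higher by 0.56 ± 0.23 in positive cells, and the groups overlapped for Epcam. Their summed level, 30871 and 34678 against 30892 and 32528, is carried by the bright Krt5, Krt14 and Trp63. The lowest values (3.52 for Tek, 3.59 for Cd3g) lay below the lower quartile of the arrays, and the part of these cell types in the Lats2 and Amotl2 values was not tested.

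Ankrd1, a nuclear ankyrin-repeat protein of stretched muscle and a standard YAP readout, was dim in these cells. Its brighter probe set (1420991_at) read 4.87 and 4.23 (positive) against 5.03 and 4.35 (negative). The dimmer (1420992_at) read 3.77 and 3.62 against 4.30 and 3.82, with both positive arrays lower but all values near or below the lower quartile of the arrays. The differences were -0.14 ± 0.35 and -0.37 ± 0.24 (SE). Skeletal muscle markers, listed because muscle is a usual site of this transcript, had 5 of 8 genes above and 0 below. Over 18193 genes, 6460 were above and 2553 below. The muscle sums were 461 and 335 (positive) against 299 and 291 (negative). Myh4 lay below the lower quartile on all 4 arrays (3.64 to 4.16), and Acta1, also above, lay below the array medians (4.43 to 5.28). Tnnt3 and Actn2, whose groups overlapped, read 4.15 to 4.20 in positive replicate 2 and the negative arrays, near the lower quartile. The part of muscle RNA in the Ankrd1 values was not tested. The genes nearest in profile to Ankrd1 were Dnm3, Slc6a17 and Krt24, at 0.07, 0.08 and 0.10 log2 units. Those nearest to Ccn1 were Evc, Clk2 and Slc36a4, at 0.04, 0.04 and 0.06. Such likeness over 4 arrays is a description only.

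Genes upstream of YAP were then examined by the limma fit over all probe sets, with each gene read by its brightest probe set. Read in that way, the median difference over 18193 genes was 0.14, with 6460 separated above and 2553 below. Of 39 listed Hippo kinases and regulators 36 were measured, and 0 were called in either direction, while 3 were higher and 2 lower at an unadjusted p under 0.05. Their median difference was 0.09, below the 0.14 over the 18193 genes read in the same way (0.07 over all probe sets). Of the 36, 11 were separated above and 7 below. The median was -0.08 without positive replicate 2. Ajuba, a LIM protein that restrains LATS kinases at junctions, read 9.38 and 9.59 (positive) against 8.49 and 8.27 (negative) (log2 difference 1.10 ± 0.20 SE, limma adjusted p = 0.233). Wtip, of the same LIM family, read 9.08 and 9.57 against 8.32 and 8.26 (1.03 ± 0.24, adjusted p = 0.251). The groups of these LIM genes did not overlap, nor did those of Dlg5, a polarity scaffold that dampens Hippo kinases, at 7.76 and 8.08 against 7.20 and 6.96 (adjusted p = 0.270). Ptpn14, a phosphatase that binds YAP and is also a YAP target, lay lower in positive cells, at 7.26 and 7.25 against 8.16 and 8.28 (-0.96 ± 0.17, adjusted p = 0.234). None of these differences passed the test.

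TEAD partner genes showed no call. Of 8 listed 7 were measured, with 2 separated above, 0 below and a median of 0.12 (-0.09 without positive replicate 1), and 0 passed even an unadjusted p of 0.05. The 18193 genes read likewise had 6460 above, 2553 below and a median of 0.14. Vgll4, which competes with YAP for TEAD, read 8.93 and 9.21 (positive) against 8.77 and 8.68 (negative) (adjusted p = 0.497). Vgll3 read 5.46 and 5.05 against 6.62 and 5.38 (adjusted p = 0.526), Vgll2 was dim (4.12 to 4.43), and Irf2bp2, a nuclear co-regulator, read 11.60 to 12.16.

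Other YAP and TEAD targets went both ways. All 17 listed were measured, with 5 separated above, 3 below and 9 overlapping, and a median difference of 0.05. Beside them, 6460 of 18193 genes read likewise were above and 2553 below, with a median of 0.14. None was called, and 3 were higher and 3 lower at an unadjusted p under 0.05. Nuak2, a kinase, read 7.81 and 8.73 (positive) against 7.16 and 6.99 (negative) (1.19 ± 0.36, adjusted p = 0.296). Myof, a membrane repair protein, read 9.30 and 9.81 against 8.58 and 8.54 (0.99 ± 0.24, adjusted p = 0.261). F3, the coagulation tissue factor, lay lower, at 9.34 and 8.76 against 9.90 and 10.59 (-1.19 ± 0.34, adjusted p = 0.287), as did Ptpn14, given above. The targets therefore had no common direction on these arrays. The list's median was 0.33 without positive replicate 1, 0.18 without negative replicate 1, -0.14 without positive replicate 2 and -0.15 without negative replicate 2.

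Other matricellular genes lay lower on the median, though above 0 after spike-in scaling, which moved the median to 0.27 (0.75 over all probe sets). Of 24 listed 23 were measured, with 6 separated below, 2 above and 15 overlapping, a median of -0.42 and 0 called. Among 18193 genes read likewise, 2553 were below and 6460 above, with a median of 0.14. At an unadjusted p under 0.05 there were 5 lower and 1 higher. Ccn4, a WNT-induced relative of Ccn2, read 6.35 and 6.002 (positive) against 8.14 and 7.37 (negative) (2.98-fold lower, adjusted p = 0.247). Ccn3 read 4.40 and 3.92 against 5.39 and 5.17 (adjusted p = 0.249), and Thbs1, which encodes thrombospondin and is a known YAP target, read 10.61 and 10.65 against 11.70 and 11.48 (adjusted p = 0.243). Postn, the periostin gene of stromal matrix, read 10.71 and 7.92 against 12.70 and 12.45 (9.58-fold lower, adjusted p = 0.288). The list's median was -0.9985 without negative replicate 2 and -0.27 without negative replicate 1. Under the block with 1 probe set per gene, added after seeing the data, Tnn, a tenascin, was called lower (limma adjusted p = 0.0397). So were 5 of the 10 fibroblast markers (Dcn, Dpt, Lum, Mfap5 and Pdgfrb) and the endothelial marker Emcn. Over 18193 genes that setting called 158 lower and 13 higher, with 1 residual degree of freedom. Either change alone called none of these genes. The part of fibroblast RNA, if any, in this list's values was not tested.

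**Figure D4:**
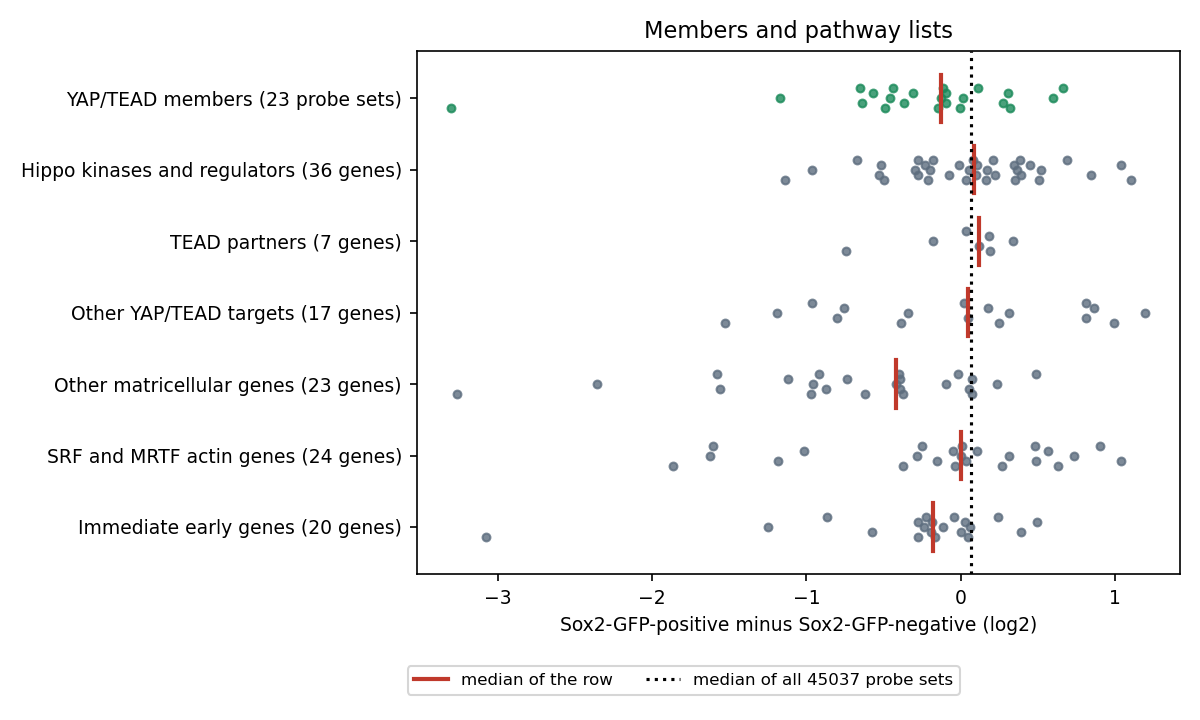
Positive minus negative difference in log2 units (horizontal axis) for the member probe sets (green) and for the genes of 6 pathway lists (grey), with the median of each row as a red bar and the median of all 45037 probe sets as a dotted line. The matricellular row has the lowest median (-0.42), and the Hippo, TEAD partner, other target and actin rows lie within 0.1 of the overall 0.07. List genes are read by 1 probe set each, for which the median over 18193 genes is 0.14.

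Ccn1 and Ccn2 are also switched on by actin signalling through SRF and by acute stimulation, so genes of those programmes were read beside them. Of 24 actin and SRF genes all were measured, with 5 separated above, 5 below and a median of 0.00 (0.23 without positive replicate 1 and -0.15 without positive replicate 2). The counts stand beside 6460 above and 2553 below of 18193 genes read likewise, with a median of 0.14. Zyx, a focal adhesion protein, read 10.54 and 10.98 (positive) against 9.84 and 9.61 (negative) (adjusted p = 0.250). Fhl2, a LIM protein, read 9.33 and 9.73 against 8.71 and 8.54 (adjusted p = 0.263), and Tpm2, a tropomyosin, 11.46 and 11.81 against 11.22 and 10.92 (adjusted p = 0.373). Filip1l, a filamin-interacting protein, ran lower, at 7.04 and 7.23 against 9.18 and 8.34 (adjusted p = 0.247).

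Immediate early genes, all 20 measured, had 9 separated below, 3 above and a median of -0.18. For 18193 genes read likewise, 2553 were below and 6460 above, with a median of 0.14. After spike-in scaling the list's median was 0.51, against 0.75 over all probe sets. Egr2 read 8.31 and 7.28 (positive) against 11.23 and 10.50 (negative), 8.42-fold lower (adjusted p = 0.226). Under the block with 1 probe set per gene, added after seeing the data, Egr2 was called lower (limma adjusted p = 0.0262). No other gene of this list was, and either change alone did not call Egr2. Egr3 read 7.74 and 7.70 against 8.95 and 8.98 (adjusted p = 0.226) and Egr1 11.61 and 11.99 against 12.51 and 12.24 (adjusted p = 0.368). Ier3, a survival factor, lay higher, at 12.74 and 12.71 against 12.35 and 12.10 (adjusted p = 0.360). In these lists too 0 genes were called, with 2 higher and 1 lower actin gene and 0 higher and 2 lower immediate early genes at an unadjusted p under 0.05.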

How the data were processed

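RNA was hybridised to Affymetrix mouse arrays of the whole genome, 1 per sample, in 2 Sox2-GFP-positive and 2 Sox2-GFP-negative samples. The authors deposited 1 table of log2 values for 45101 probe sets, and the scale was read from the values. R 2.14.0 is named, per the submitters' processing notes. Which background correction and normalization came before is not given in the sources used here. No detection calls or depths were used, and the 64 control probe sets were left out of tests.

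Limma (3.58.1, in R 4.3.3; lmFit and eBayes, group as the only term, Benjamini-Hochberg over all probe sets) left 2 residual degrees of freedom and added a prior of 2.56. It was tested on simulated data. Standard errors of members come from that fit. The annotation gave 34945 probe sets 1 symbol, 932 several and 9160 none. Members and lists were chosen with earlier results of these data known. In each list every gene past the threshold and the 4 with the smallest p were named, with the 3 nearest profiles of Ccn1, Ccn2 and Ankrd1 among genes at or above the median probe set.

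Alternatives were quantile normalization, equal medians, the replicate block, spike-in scaling, a filter on dim probe sets (which kept 19 of the 23 member probe sets), 1 probe set per gene, other priors, an adjusted p of 0.1 and leaving out each array. Nothing says whether replicates came from separate sorts beyond the 2 tumours, so p-values measure only the spread between these arrays.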

Additional observations from a re-analysis of the deposited data

How the results depend on the processing

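Both groups carry replicate numbers 1 and 2, and the labels do not tie a number to a tumour. Differences between replicates 1 and 2 in the positive and in the negative arrays correlated across probe sets with r = 0.18 (0.24 in the brighter ones), over probe sets that are not independent. With the replicate block, 0 probe sets were called higher and 0 lower (lowest adjusted p = 0.0974; 3102 higher and 3997 lower at an unadjusted p under 0.05), and it changed no call. Added after seeing the data, the block with quantile normalization also called 0 and 0, but the block with 1 probe set per gene called 13 higher and 158 lower genes (lowest adjusted p = 0.0262), among them 1 matricellular gene (Tnn) and 1 immediate early gene (Egr2), both lower, and 0 in the other lists.

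Scaling to the 27 spike-in probe sets called 18219 of 45037 probe sets higher and 314 lower. It left 8 of the 23 member probe sets separated above and 1 (Ccn2) below, beside 34532 above and 1192 below over all probe sets. The members' median moved to 0.56, and that of all probe sets to 0.75. Under this scaling the calls higher and the medians were 12 and 0.77 for Hippo regulators, 3 and 0.80 for TEAD partners, 5 and 0.73 for other targets, 4 and 0.27 for matricellular genes, 5 and 0.69 for actin genes, and 3 (with 1 lower) and 0.51 for immediate early genes. These stand beside the 18219 calls higher and the median of 0.75 over all 45037 probe sets. As the same shift was added to every gene, nothing is read from the list calls. Without the Trp spike-ins, which lay near the floor (added after seeing the data), the scaling called 26711 probe sets higher and 315 lower. The members then had 10 above, 1 below and a median of 0.66. All probe sets had 36058 above, 919 below and a median of 0.86. The lists then had 19 and 0.88, 5 and 0.91, 7 and 0.84, 5 (with 1 lower) and 0.37, 11 and 0.79, and 7 (with 1 lower) and 0.61, in the same order. Only 9 of the 23 member differences kept their sign under either version, because the shift is added to each.

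With equal medians 4 member probe sets were separated above, beside 16993 of all 45037 probe sets. The other targets then had a median of 0.13, against 0.15 over all probe sets. The filter on dim probe sets gave medians of 0.17 for other targets and -0.87 for matricellular genes. With 1 probe set per gene, 0 members were separated above and 2 below, beside 6460 above and 2553 below of 18193 genes. Leaving out each array in turn gave 1 to 8 members above and 8 to 15 below. Of all 45037 probe sets, 18169 to 20985 were then above and 13015 to 14572 below. The medians ran from -0.15 to 0.33 for other targets and from -0.9985 to -0.27 for matricellular genes. They crossed 0 for the members (-0.49 to 0.06), Hippo regulators (-0.08 to 0.23), TEAD partners (-0.09 to 0.27) and actin genes (-0.15 to 0.23). The causes were not tested. Signal near the floor limits Ankrd1, Tead2, 1 Lats2 probe set (1426156_at) and Ccn2 in positive replicate 2.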
